A study of Columba livia with 12 samples.

Results

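A set of 60 genes was examined that were scarce in the flight muscle of most untrained racing pigeons and higher in that of most trained birds after a race. They are 60 of the 15392 locus tags in the count files. A locus tag is the serial name that a genome annotation gives to a gene. Counts were scaled to the library total, as counts per 1000000 counts (CPM), and medians were taken over the birds of each group. The members are the 60 tags with the largest log2((trained median + 0.5)/(untrained median + 0.5)), called the score here, among the 5204 tags with an untrained median under 1 CPM. The score used all 12 libraries, so the difference between the groups in these tags is a property of their choice. It is described here and supports nothing.

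The birds were racing pigeons (Columba livia) of a single private loft, kept under shared housing and feeding, with 1 library of pectoral muscle per bird. The trained group held 7 birds with earlier flight training that were sampled after a 300 km race, having been basketed on the previous day and driven to the release site. The untrained group held 5 adult birds without any race training. Training, race, basketing and transport came together in the trained birds, so their shares in any difference cannot be told apart. The time between arrival and sampling is not given in the sources used here.

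The pectoralis is the large breast muscle that drives the downstroke of the wing, and in pigeons it consists mainly of fast fibres rich in mitochondria. In vertebrates, hard muscular work is known to raise transcripts that are scarce at rest, among them stress-responsive transcription factors, secreted signalling proteins and chaperones. Whole-muscle RNA also holds small amounts from blood, vessel, nerve and connective tissue cells, so a rare transcript may belong to a minority of cells. In such bulk samples more cells of a type and more RNA per cell cannot be told apart. Which of the members belong to these classes is not known: none of the 15392 tags (0 matches) was found among the identifiers of the RefSeq gene table used here, so the tags carry no gene names. For the same reason the muscle itself could not be checked by its marker genes, and 2 members are given by tag and the others by their rank in the score. CPM values are not divided by gene length, so levels are compared between birds and not between tags.

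Library totals over tags ranged from 13611534 to 26876040 counts in trained birds and from 17297318 to 29169918 in untrained birds. Over all tags, 2 libraries stood apart. Untrained bird 5 had a median Spearman correlation, taken across the tags with a mean of at least 1 CPM, of 0.959 with trained birds and 0.919 with the other untrained birds. Untrained birds 2, 3, 4 and 12 had 0.896 to 0.908 with trained birds and 0.955 to 0.969 with the rest of their group. Trained bird 13 had a median of 0.845 with the other trained birds, against 0.927 to 0.958 for each of those others, and 11655 detected tags, against 12546 to 13206. Some results are also given without 1 or both of these libraries, in part only as ranges with 1 library left out. The others rest on all 12 libraries.

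Among the members the trained medians ran from 1.34 to 19.9 CPM with a middle value of 3.96 CPM, and the untrained medians from 0 to 0.831 CPM with a middle value of 0.236 CPM. The untrained median was 0 in 7 members. Scores ran from 1.84 to 5.19 with a median of 2.45, beside a median of 0 over all 5204 tags with a low untrained median. The last tags inside the limit had scores of 1.88, 1.87 and 1.84, and the first outside had 1.84, 1.79 and 1.77, so the list ends in an unbroken run of values. Of the 5204 tags, 205 had a score of at least 1 and 22 had a score of -1 or less. A member rested on 261 to 3448 counts over the trained libraries and on 3 to 522 over the untrained ones, and without untrained bird 5 on 0 to 130. A library with 0 counts of a tag could still hold it at up to 0.112 to 0.22 CPM in trained birds and 0.103 to 0.173 CPM in untrained birds, the level of 3 counts. That limit covers counting error only.

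**Figure D1:**
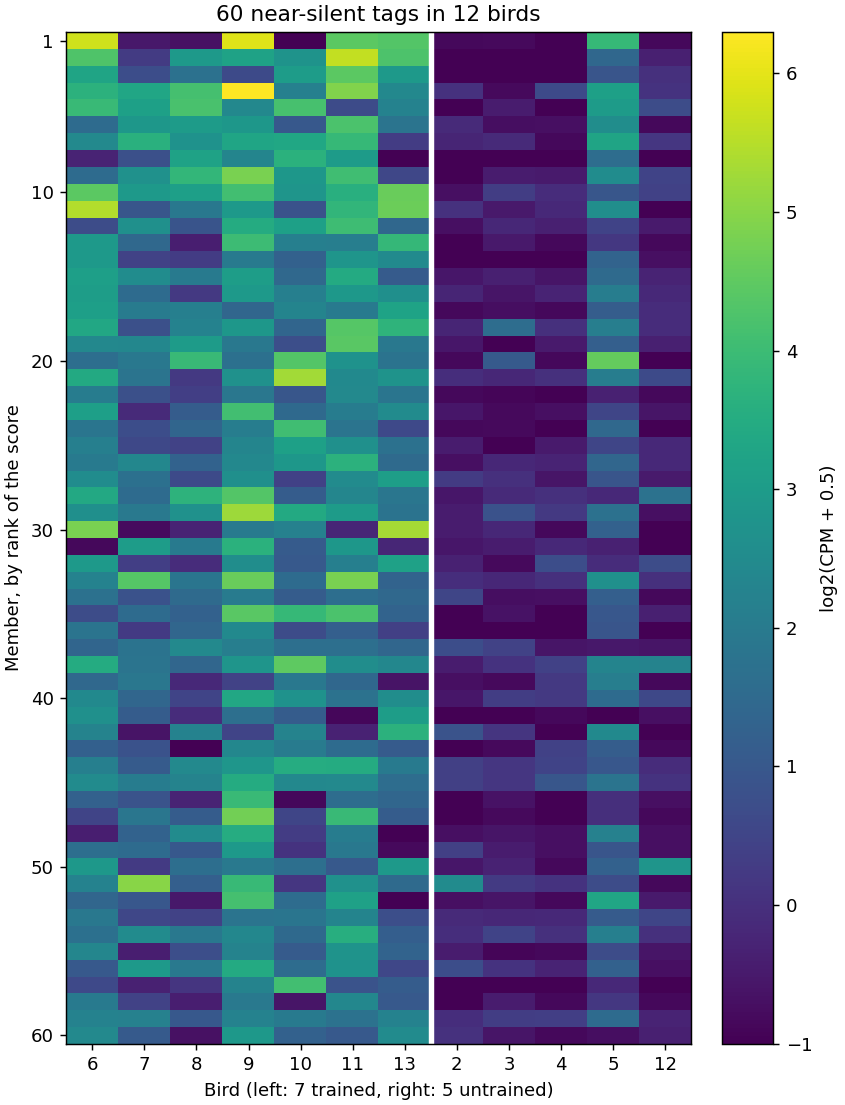
Level of each member (rows, rank 1 at the top) in each bird (columns, 7 trained on the left and 5 untrained on the right) as log2(CPM + 0.5). The trained columns are bright in different rows from bird to bird, and the column of untrained bird 5 is brighter than those of the other untrained birds.

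By their choice the members were above 1 CPM in most raced birds, but they were seldom at an even level. Trained birds had 41 to 58 of the 60 members at or above 1 CPM (median 52), and the untrained birds 2, 3, 4, 5 and 12 had 4, 3, 3, 45 and 6. The summed level of all members had a lowest value of 218, a median of 333 and a highest of 645 CPM in trained birds. The untrained birds 2, 3, 4, 5 and 12 had 21.8, 20.7, 17.2, 185 and 30.6 CPM. Each trained bird lay above each untrained bird in both measures except in the count, where untrained bird 5 exceeded trained bird 8 with 41. The same count was taken over all 5204 tags with a low untrained median, members included. Untrained birds 2, 3, 4, 5 and 12 had 300, 186, 203, 336 and 243 there, and trained birds had 258 to 612. Untrained bird 5 thus stood out far less over those tags than over the members. Of the 60 members, 25 reached 1 CPM in all 7 trained birds, 17 in 6 birds, 12 in 5 and 6 in 4. In the untrained group 12 members reached 1 CPM in no bird, 35 in 1 bird and 13 in 2 birds. The choice of members set limits on these tallies. All trained medians were at least 1.34 CPM, so each member had to reach 1 CPM in at least 4 of the 7 trained birds. An untrained median under 1 CPM allows at most 2 of the 5 untrained birds to reach it. "Near-silent" therefore describes untrained birds 2, 3, 4 and 12 and not untrained bird 5, and "on" in every raced bird describes 25 members.

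**Figure D2:**
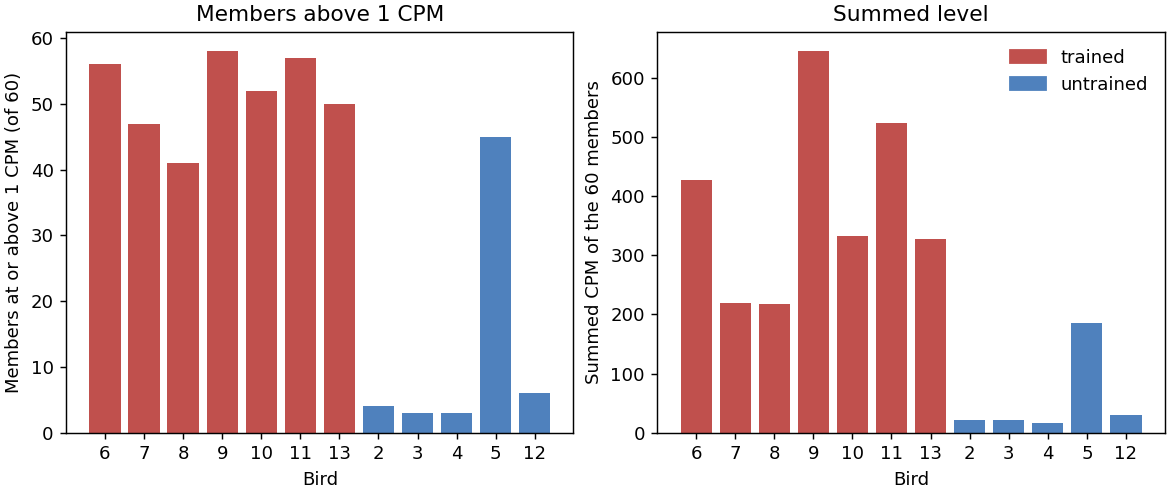
Number of members at or above 1 CPM (left) and summed CPM of all 60 members (right) in each bird, trained birds in red and untrained birds in blue. Bars are single birds. Untrained bird 5, with 45 members and 185 CPM, lies near the lowest trained birds, which had 41 members and 218 CPM, and far from the other untrained birds at 3 to 6 members and 17.2 to 30.6 CPM.

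The tag with the largest score, A306_00010239, was present or absent from bird to bird and not simply between the groups. Trained birds 6, 9, 11 and 13 had 53.9, 60.5, 21.5 and 19.9 CPM of it, from 1011, 1535, 416 and 271 counts, whereas trained birds 7, 8 and 10 had 5, 2 and 0 counts. Untrained bird 5 had 14.3 CPM from 290 counts, and untrained birds 2, 3, 4 and 12 had 1, 2, 0 and 1 counts. No bird lay between 0.186 and 14.3 CPM, so both groups held birds on both sides of the gap. Trained birds averaged 22.3 ± 25.6 CPM (SD, n = 7), and untrained birds averaged 2.89 ± 6.37 CPM (SD, n = 5), with a log2 fold change of 3.0 ± 1.74 (SE, edgeR). The middle trained bird, bird 13 with 19.9 CPM, fell on the high side, which gave the tag its rank.

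Few tags in the table met the limits set here for such a pattern. Tags without at least 3 birds at 10 CPM or more could not meet them. Over all 15392 tags, 4 had a gap of at least 10-fold between a lower and an upper set of at least 3 birds, with the upper set at 10 CPM or more and lower values raised to 0.5 CPM, and A306_00010239 was the only member among them. Its gap was 28.6-fold on that scale. In the other 3 tags the trained birds all lay on the same side of the gap. For the particular division of trained birds 6, 9, 11 and 13 with untrained bird 5 from the other 7 birds, the tag with the next largest gap differed by 1.72-fold. That next tag was also a member, rank 11, which had 43.7, 7.09, 13.4 and 24.8 CPM in trained birds 6, 9, 11 and 13 and 5.62 CPM in untrained bird 5. The remaining 7 birds had 0 to 3.27 CPM of it. These searches were made after the values of A306_00010239 had been seen.

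A306_00009708, at rank 10, was the member with the highest minimum in the trained group. It had 21.6, 7.07, 8.16, 16.5, 6.54, 11.7 and 24 CPM in trained birds 6, 7, 8, 9, 10, 11 and 13, and 0.116, 0.754, 0.443, 1.43 and 0.833 CPM in untrained birds 2, 3, 4, 5 and 12. The groups did not overlap, and the lowest trained bird had 117 counts against 29 in the highest untrained bird, bird 5. Trained birds averaged 13.7 ± 7.15 CPM (SD, n = 7), and untrained birds averaged 0.715 ± 0.489 CPM (SD, n = 5), with a log2 fold change of 4.33 ± 0.61 (SE, edgeR). With any single library left out the log2 fold change lay between 4.0 and 4.72. The tag was named for its high trained minimum in these same libraries, so its separation and its steady fold change are a description only.

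**Figure D3:**
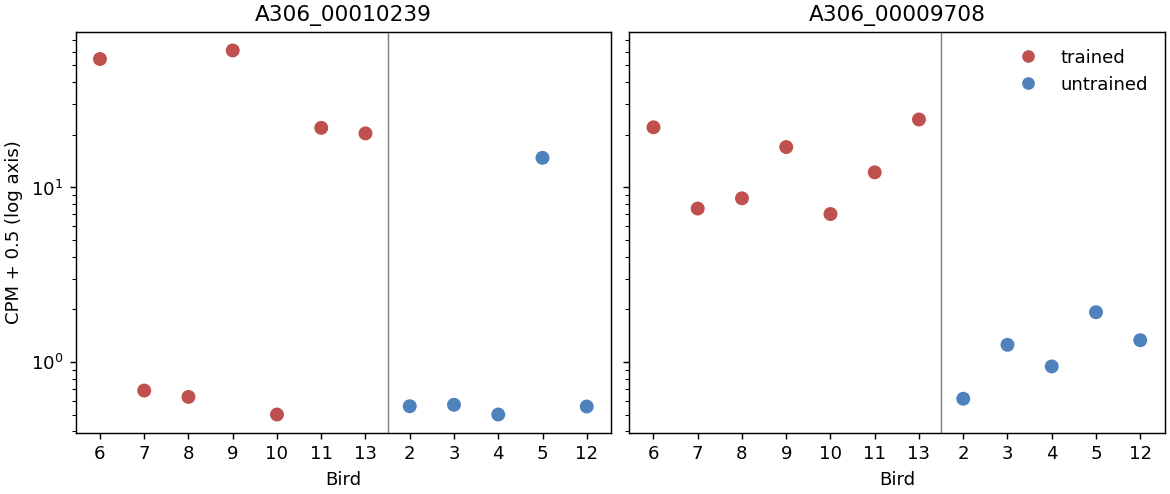
CPM + 0.5 of 2 members in each bird on a log axis, with trained birds in red on the left of the line and untrained birds in blue on the right. A306_00010239 lies at or above 14.3 CPM in 5 birds and at or below 0.186 CPM in the other 7, while A306_00009708 lies at or above 6.54 CPM in all trained birds and at or below 1.43 CPM in all untrained birds.

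Full separation of the groups, as in A306_00009708, was seen in 8 of the 60 members, beside 0.858% of all tags in the table. The rule used this contrast, so nothing is read from the difference between these shares. Without untrained bird 5 the trained birds lay above all remaining untrained birds in 35 members, beside 5.05% of all tags. Without trained bird 8 the count was 13. The share over all tags was not computed for that setting, so nothing is read from it. The 8 members held ranks 10, 12, 17, 22, 29, 37, 44 and 47. Rank 22 had 0.784 to 4.90 CPM with a median of 3.09 in trained birds, and 1, 1, 0, 6 and 1 counts in untrained birds 2, 3, 4, 5 and 12. Rank 37 had 2.08 to 4.90 CPM with a median of 2.68 in trained birds, and 1.16, 0.857, 0.166, 0.197 and 0.167 CPM in untrained birds 2, 3, 4, 5 and 12. In rank 37 untrained bird 5 was thus with birds 4 and 12, and untrained bird 2 came closest to the raced birds.

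A fit across all tags with enough counts (edgeR quasi-likelihood test, Benjamini-Hochberg adjustment, adjusted p under 0.05) called 28 of the 60 members higher in trained birds, all 60 having passed the count filter. It called 2.98% of the 11047 tags tested higher, and since the members were chosen on this contrast nothing is read from the excess. The other 32 members, A306_00010239 among them, did not pass the threshold, and their log2 fold changes ran from 0.58 to 4.57. The median log2 fold change of the 60 members was 2.99, beside 0.04 over all tags tested, and without untrained bird 5 it was 4.48, beside 0.04. The count depended on single libraries. Without untrained bird 5 it was 54, beside 9.77% of all tags, and A306_00010239 was then among them with a log2 fold change of 8.72. Without untrained birds 2, 3, 4 or 12 it was 7, 5, 4 and 6, beside 0.358%, 0.233%, 0.206% and 0.464% of all tags. Without trained birds 6, 9 and 11 it was 18, 17 and 11, beside 1.66%, 1.52% and 0.748% of all tags. The members that passed the count filter in those fits numbered 56, 55 and 57. Without trained birds 7, 8, 10 and 13 it was 24, 24, 22 and 27, beside 2.55%, 1.73%, 1.85% and 4.67%. There 57, 59, 57 and 56 members passed the count filter. A306_00009708 was called in each of these fits, which is a description only, since it was chosen on these libraries. DESeq2, run as an alternative on all 12 libraries, called 45 members higher, beside 6.98% of all tags.

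Untrained bird 5 carried most of the members' signal in its group. It was the highest untrained bird in 52 of the 60 members, while untrained birds 2, 3, 4 and 12 were highest in 3, 0, 2 and 3. Its value lay inside the trained range in 46 members, above the highest trained bird in 2 and below the lowest in 12. It reached the trained median in 7. The untrained birds 2, 3, 4 and 12 reached at least the lowest trained value in 12, 14, 10 and 17 members. In 5 members a trained bird had 0 counts, so every untrained bird, bird 5 included, reached the lowest trained value there by definition. Both members in which untrained bird 5 exceeded all trained birds were low in the rest of its group. Rank 20 had 2.61 to 19.8 CPM with a median of 3.31 in trained birds and 23.3 CPM in untrained bird 5, against 0 to 1.58 CPM in the other untrained birds. Rank 39 had 0.147 to 3.30 CPM with a median of 2.22 in trained birds and 3.89 CPM in untrained bird 5, against 0.0555 to 0.665 CPM in the other untrained birds. At the other end, rank 41 had 0.0516 to 7.79 CPM with a median of 1.68 in trained birds and 0 counts in untrained bird 5, where the other untrained birds had 3 counts in all.

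**Figure D4:**
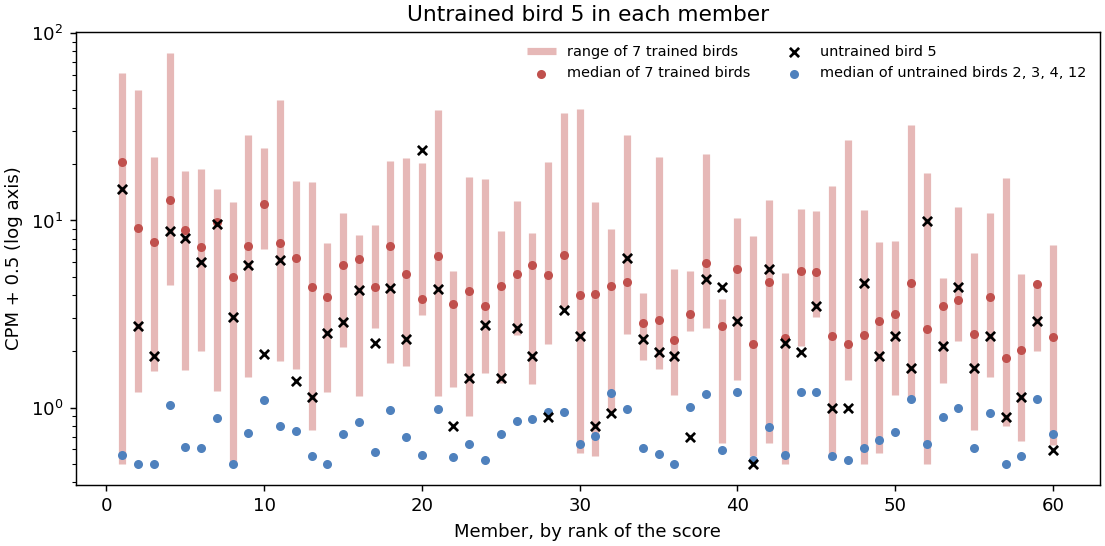
For each member by rank, the range (bar) and median (red point) of the 7 trained birds, the value of untrained bird 5 (cross) and the median of untrained birds 2, 3, 4 and 12 (blue point), as CPM + 0.5 on a log axis. The cross lies inside the bar in 46 members and above it in 2.

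In 3 members untrained bird 5 was the only untrained bird with any count. Rank 8 had 52 counts in untrained bird 5 and 0 in the others, and 0 to 12 CPM with a median of 4.49 in trained birds. Rank 36 had 28 counts in untrained bird 5, and 0.67 to 5.04 CPM with a median of 1.80 in trained birds. Rank 57 had 8 counts in untrained bird 5, and 0.298 to 16.4 CPM with a median of 1.34 in trained birds. In all 3 untrained bird 5 lay above the lowest trained bird, so the groups overlapped.

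The same bird was also set against a mirror list, the 60 tags with a trained median under 1 CPM and the lowest scores. Trained birds had 0 to 22 of those tags at or above 1 CPM with a median of 11, untrained bird 5 had 22, and untrained birds 2, 3, 4 and 12 had 59, 58, 59 and 49. Untrained bird 5 was below all other untrained birds in 53 of them and inside the trained range in 48. Both lists thus place untrained bird 5 within or next to the range of the raced birds. Both were chosen on libraries that include it. A choice by the untrained median leaves room for a lone untrained bird that differs from the rest, so this placing is a description only. Whether the label of untrained bird 5 is right was not tested, and each value of the untrained group that includes this bird holds only as far as its label does.

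The raced birds differed widely among themselves in the members. The ratio of the highest to the lowest trained bird, each with 0.5 CPM added, ran from 2.09 to 122 with a median of 10.7, and it exceeded 10 in 32 members (53.3%). Among 4518 other tags whose trained medians lay in the same range, 1.34 to 19.9 CPM, it had a median of 3.46 and exceeded 10 in 11.3%. The coefficient of variation among trained birds (SD over mean) had a median of 0.864 in the members and 0.438 in those other tags. The trained medians of those other tags had a middle value of 6.76 CPM, above the 3.96 CPM of the members, so counting error weighs less there. Of those other tags 148 also had an untrained median under 1 CPM, and they stood between, with a median of 0.688 and ratios above 10 in 17.6%. The trained medians of the 148 were lower, with a middle value of 1.76 CPM, and counting error weighs more there. The score used the trained libraries, so these values are a description.

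By the ratio with 0.5 CPM added, only 9 members varied by less than 5-fold among raced birds, ranks 10, 17, 22, 34, 36, 37, 45, 53 and 59. Rank 17 is an example, at 2.17 to 8.96 CPM with a median of 3.92 in trained birds and 0.0578, 0.103, 0.0554, 1.72 and 0.444 CPM in untrained birds 2, 3, 4, 5 and 12. At the other extreme, a single bird held over 50% of the CPM summed over trained birds in 10 members. Trained bird 9 was that bird in 5 of these, trained bird 10 in 3 and trained birds 7 and 13 in 1 each. The share was 64.02% in rank 46 and 63.98% in rank 57. In rank 46 trained bird 9 had 14.8 CPM, where the other trained birds had 0.0559 to 2.53 CPM. In rank 57 trained bird 10 had 16.4 CPM, and the other trained birds had 0.298 to 4.29 CPM. With group means in place of medians 33 of the 60 members would have been chosen, and 20 members had an untrained mean of 1 CPM or more, which put them outside the limit on untrained birds.

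Different raced birds led different members. Trained bird 9 was highest in 22 members, trained bird 11 in 15, trained bird 10 in 9, trained bird 13 in 8, trained bird 6 in 3, trained bird 8 in 2 and trained bird 7 in 1. The lowest trained value was in trained birds 8 and 13 in 14 members each, in trained birds 7 and 10 in 11 each, in trained bird 6 in 6 and in trained birds 9 and 11 in 2 each. These places use CPM by plain library totals. The scaling factor of the fit (TMM) was 0.752 in trained bird 13 and 0.98 to 1.07 in the other libraries. Scaled values of trained bird 13 would thus be higher, and the places by scaled values were not counted. Trained birds 7 and 8 had the lowest sums, 220 and 218 CPM, and trained birds 9 and 11 the highest, 645 and 523 CPM. Their libraries held 26876040 and 15309816 counts in trained birds 7 and 8, and 25390562 and 19390803 counts in trained birds 9 and 11. Sums were also taken over all 5204 tags with a low untrained median, members included. They were again highest in trained birds 9 and 11, at 2868 and 2156 CPM. Trained birds 7 and 8 had 1839 and 1233 CPM there. Those sums include the members, and sums over the other tags alone were not taken. How far the lead of trained birds 9 and 11 reaches beyond the members was thus not tested. The part of depth in these sums was not tested.

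Trained birds 6 and 13 shared a profile over the members. Each member's log2(CPM + 0.5) was taken as a deviation from its mean over trained birds, and birds were then correlated across members. The pair had a Pearson's r of 0.75 over the 60 members, the highest of the 21 pairs of trained birds, where the next highest was 0.23. Over 10363 other tags with a mean of at least 1 CPM the same pair had an r of -0.28. It was 0.10 over the 148 other tags with a low untrained median and a trained median in the members' range. Those 148 had lower trained medians, with a middle value of 1.76 CPM against 3.96 CPM in the members. Trained birds 6 and 13 both lay above trained birds 7 and 8 in 30 members and below both in 11. Trained birds 6 and 13 were the highest pair of trained birds in 7 members (11.7%), beside 2.83% of the other tags. Trained birds 9 and 11 were the highest pair in 9 members, and trained birds 6 and 11 in 8. The shares of these other pairs over the other tags were not computed. Places use plain library totals, and scaling by the TMM factor of 0.752 would raise trained bird 13. Nothing is therefore read from the difference between 11.7% and 2.83%. Rank 30 is a marked example among the 7 members led by trained birds 6 and 13, with 28.1 and 39 CPM in these birds. Trained birds 7, 8, 9, 10 and 11 had 0.0744, 0.327, 3.51, 4.08 and 0.361 CPM of rank 30. Untrained birds 2, 3, 4, 5 and 12 had 0.231, 0.377, 0.0554, 1.92 and 0 CPM of it. These correlations are across tags, which are not independent replicates, and the deviations of 7 birds sum to 0 in each member, which pulls correlations between birds below 0. Trained bird 13 is the library that stood apart over the whole table.

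**Figure D5:**
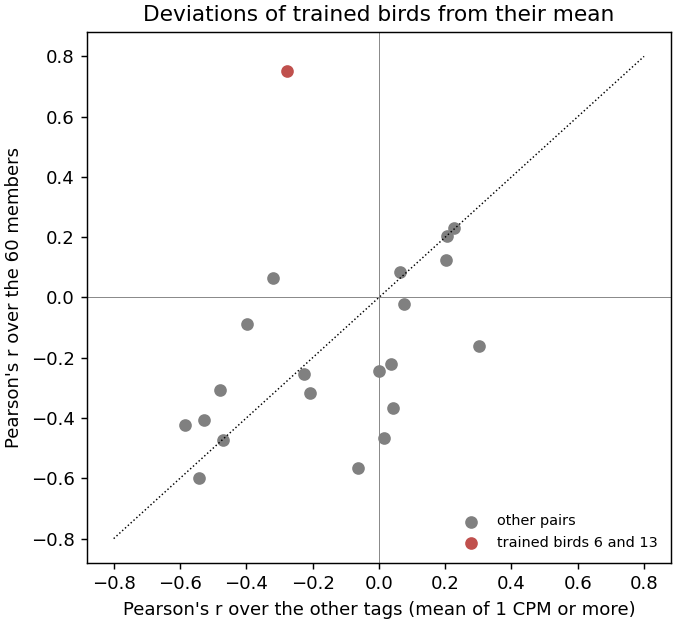
Pearson's r between the deviations of each pair of trained birds, over the 60 members (vertical axis) against the other tags with a mean of at least 1 CPM (horizontal axis); each point is a pair and the dotted line marks equal values. Trained birds 6 and 13, in red, had 0.75 over the members and -0.28 over the other tags.

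The members were scattered through the serial order of the tags, with 5 pairs of neighbouring members at most 10 places apart. Only 1 pair stood on consecutive tags, ranks 6 and 19. Rank 6 had 1.51 to 18.3 CPM with a median of 6.70 in trained birds, and 0.405, 0.103, 0.111, 5.47 and 0.0555 CPM in untrained birds 2, 3, 4, 5 and 12. Rank 19 had 1.17 to 21 CPM with a median of 4.65 in trained birds, and 0.173, 0, 0.222, 1.82 and 0.278 CPM in untrained birds 2, 3, 4, 5 and 12. Trained bird 11 was highest and trained bird 10 lowest in both, and untrained bird 5 was the highest untrained bird in both. Their log2(CPM + 0.5) had an r of 0.87 over the 7 trained birds. Of 7669 pairs of consecutive tags with a mean of at least 1 CPM, 7.51% had an r as high, around a median of 0.24. In the other 4 pairs r ran from -0.67 to -0.10. Whether the consecutive tags overlap or share sequence, so that reads could be split between them, was not tested.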

How the data were processed

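Per the labels' protocols, TriReagent was used to isolate total RNA from the pectoral muscle, and libraries were built with a TruSeq RNA kit. The authors deposited 1 table of whole-number counts per locus tag for each of 12 libraries, not normalized. HTSeq, STAR, DESeq2, FastQC 0.11.5 and bcl2fastq 2.20 are listed, without roles, in the submitters' processing notes. Genome build, annotation and strand setting were not given in the sources used here, so reads of overlapping or antisense genes may be shared. The 5 summary rows, 24.0% to 27.0% of each file's reads, name no gene and were left out.

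Groups came from the labels, which give no batch. CPM used plain library totals. The fit across tags used edgeR 4.0.16 in R 4.3.3 (filterByExpr, TMM scaling, robust dispersions, two-sided quasi-likelihood test). The SE is the absolute log2 fold change over the square root of F. DESeq2 1.42.0 was an alternative. Scripts were tested on simulated data. No 2 libraries of a group were duplicates, since the chi-square per degree of freedom was at least 62.1 over 31 pairs. Whether birds are independent beyond being separate animals of the loft is not stated.

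The members and lists were chosen with earlier results of these data known. The rule for naming was the member with the largest score and the member with the highest minimum among trained birds. Marker and pathway lists could not be applied without gene names. The on/off gaps, the pairs of trained birds, the neighbouring tags and the members given by rank were chosen after values were seen.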

Additional observations from a re-analysis of the deposited data

Results flagged for a closer look

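Within each group the highest or lowest bird was compared with its nearest neighbour relative to the range of the group (Dixon's criterion). Its usual rate by chance, about 1 in 20 groups, does not hold here, because the tags were chosen on these same libraries. A choice by a low untrained median leaves room for a lone high untrained bird, so the values are a description only. Untrained bird 5 lay far from the other untrained birds in the number of members at or above 1 CPM (45 against at most 6 in the others), in their summed level (185 against at most 30.6 CPM) and in their median level (1.92 against at most 0.223 CPM). It also did so in A306_00010239 (14.3 against at most 0.0686 CPM) and in the mirror list, where 22 tags were at or above 1 CPM against at least 49 in the others. Trained bird 13 lay apart from the other trained birds with 3 members without a count, against at most 1 in the others, and it had the smallest library. The part of depth in that count was not tested.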

How the results depend on the processing

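The list itself depended on its settings. Of the 60 members, 57 were chosen again with TMM-scaled CPM or a pseudocount of 1 CPM, 43 with a pseudocount of 0.1 CPM, 48 and 45 with untrained medians under 0.5 and 2 CPM, and 33 with group means. Leaving out 1 library kept 47 to 56, and 49 were kept without both untrained bird 5 and trained bird 13. The edgeR count of called members, 28, was 28 with DESeq2 size factors and 26 without a count filter. It was 45 with DESeq2, and 52 of 58 members tested without untrained bird 5 and trained bird 13. With 1 library left out it ranged from 4 to 54. Over all tags 713 were called in either direction, 725 with DESeq2 size factors, 635 without a filter, 1691 with DESeq2 and 2977 without both birds. The range was 111 to 1896 when 1 library was left out. Tags called higher in trained birds were, in the same order, 329 of 11047 tested, 343 of 11047, 270 of 14484, 889 of 12742 and 1602 of 11172. With 1 library left out the tags called higher ranged from 23 to 1095. The count of fully separated members, 8, was 9 with TMM-scaled CPM and 8 to 35 with 1 library left out. The matching share over all tags was computed only for all libraries and without untrained bird 5, so nothing is read from the other counts. The median number of members per trained bird was 57, 52 and 39 at limits of 0.5, 1 and 2 CPM, and per untrained bird 13, 4 and 1. TMM scaling gave 53 and 4. Leaving out trained birds gave 51 to 54 and leaving out untrained bird 5 gave 3.5, both chosen after the data were seen. The median coefficient of variation among trained birds was 0.844 with TMM scaling and 0.771 to 0.867 with a trained bird left out. A306_00009708 kept its call and direction in all 16 alternative fits. It was chosen on the libraries that these fits share, so nothing is read from that. A306_00010239 was positive in the 11 that tested it, at 2.68 to 3.22 except 8.72 without untrained bird 5. It did not pass the count filter once trained bird 6, 9, 11 or 13 was left out. The causes of these shifts were not tested. No paired analysis was possible because the groups held different birds, with 1 library per bird. Members in untrained birds rest on few counts, which limits the precision of any ratio.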
